A study of Homo sapiens with 4 samples.

Results

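The miR-106b~25 cluster comprises 3 miRNA hairpins, miR-106b, miR-93 and miR-25, and its 6 mature miRNAs were taken by name from 2366 human miRNAs counted in small-RNA libraries. Each hairpin gives a 5p and a 3p miRNA, cut from its left and right arm. All 6 had reads in all 4 libraries, and all 6 were among the 464 miRNAs that passed a filter on low counts and were tested. The cells were K562, an established human chronic myeloid leukaemia line, carrying dCas9-KRAB, an inactive Cas9 fused to a repressor domain that silences the gene its guide RNA points to (CRISPR interference). The ERH knockdown group had 2 libraries, from polyclonal lines with guide RNA 1 or 2 against ERH and 0.05 µg/ml doxycycline for 5 days. The control group had 2 libraries from the same lines, with the same guide RNAs and dCas9-KRAB but without doxycycline, also at day 5, so effects of the drug and of the knockdown cannot be told apart here. Each guide RNA thus gave 1 knockdown and 1 control library, and values of a group are given for guide RNA 1 and then guide RNA 2.

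ERH is a conserved nuclear factor known to bind DGCR8. DGCR8 and Drosha form the Microprocessor, which releases hairpins from the primary transcript, and the study asked how ERH serves hairpins that lie next to others. After that cut, Dicer removes the loop, and one strand of the resulting duplex is usually kept by an Argonaute protein while the other is mostly degraded. The miR-106b~25 cluster is a paralogue of the oncogenic miR-17~92 cluster and is transcribed with MCM7, a subunit of the replicative helicase. Its abundant strands are known to repress cell cycle inhibitors and pro-apoptotic genes, CDKN1A and BCL2L11 among them.

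On chromosome 7 (GRCh38, GENCODE 29, minus strand) the hairpins come in the order MIR106B (100093993-100094074), MIR93 (100093768-100093847) and MIR25 (100093560-100093643) along the transcript. They span 515 bases. All 3 sit in 1 intron of MCM7, intron 13 of its principal transcript (100093402-100094172, 771 bases), and were intronic in all 8 annotated MCM7 transcripts that span them. The mature sequences are shown because the bases that select targets, the seed (bases 2 to 8, in capitals), group the 6 miRNAs (RefSeq, GRCh38.p14, all 6 matched by name, 5′ to 3′).
hsa-miR-106b-5p: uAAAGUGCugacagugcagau
hsa-miR-93-5p: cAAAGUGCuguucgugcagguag
hsa-miR-25-3p: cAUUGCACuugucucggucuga
hsa-miR-106b-3p: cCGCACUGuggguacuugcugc
hsa-miR-93-3p: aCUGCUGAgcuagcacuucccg
hsa-miR-25-5p: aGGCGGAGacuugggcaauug
miR-106b-5p and miR-93-5p share 1 seed, that of miR-17-5p and miR-20a-5p. miR-25-3p has the seed of miR-92a-3p. The seeds of miR-106b-3p, miR-93-3p and miR-25-5p were held by no other counted miRNA whose sequence was matched.

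MIR25 is shown because its arm ratio had the largest estimated change of the 3, and MIR106B as a neighbour whose arm ratios overlapped between the groups, with the arms in capitals (RefSeq, GRCh38.p14, minus strand).
MIR106B: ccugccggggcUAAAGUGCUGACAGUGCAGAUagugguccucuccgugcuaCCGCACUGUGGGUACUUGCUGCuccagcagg
MIR25: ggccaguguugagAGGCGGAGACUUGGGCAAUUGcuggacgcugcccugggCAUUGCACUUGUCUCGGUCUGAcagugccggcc
In the folds predicted with RNAfold, 13 bases of the 2 arms were unpaired in MIR25 and 10 in MIR106B. The median was 7 over the 739 human hairpins with both arms placed, and 93.5% of these had fewer unpaired arm bases than MIR25. The predicted fold energy per base was -0.43 kcal/mol for MIR25 and -0.54 for MIR106B, against a median of -0.45 over 1560 hairpins. The letters UGU, a known apical Microprocessor motif, searched on the transcribed strand only, occur in neither hairpin between the arms, and they occur there in 33.7% of the 739 hairpins.

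The knockdown libraries held 2227374 and 2393565 miRNA reads (guide RNA 1 and guide RNA 2) and the control libraries 1430434 and 2476700. Small-RNA libraries hold no ERH mRNA value, and the depth of the knockdown was not checked here. Erythroid miRNAs (miR-451a, miR-144-3p, miR-144-5p and miR-486-5p, 4 of 4 counted) summed to 50883 to 52714 CPM (a miRNA's reads scaled to 1000000 miRNA reads) after knockdown and 39087 to 39849 in controls. Myeloid miRNAs (2 of 2) summed to 84590 to 84708 CPM after knockdown and 90005 to 91938 in controls, megakaryocytic ones (2 of 2) to 26967 to 27912 after knockdown and 27762 to 30710 in controls, and those of other cell types (7 of 8) to 1579 to 1622 after knockdown and 1043 to 1091 in controls. With TMM scaling the sums after knockdown were 44434 to 44571 for the erythroid list, 71523 to 73971 for the myeloid and 22802 to 24375 for the megakaryocytic list, against 45185 to 46687, 102055 to 109814 and 33160 to 34822 in controls. The erythroid list thus changed side with the scaling, and the other cell types, at 1371 to 1379 after knockdown against 1237 to 1246 in controls, did not. Among erythroid miRNAs, miR-144-3p (0.74 ± 0.05) and miR-451a (-0.48 ± 0.05) moved in opposite directions with TMM (log2 fold change ± SE, edgeR, adjusted p = 1.66e-08 and 8.55e-07). No listed miRNA was at 0 in all libraries, and the part of these shifts in the results below was not tested. Reads of 2 added spike-in RNAs made up 1.96% to 2.59% of all reads after knockdown and 2.29% to 3.13% in controls. In bulk RNA, fewer cells of a type and less RNA per cell cannot be told apart.

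Within each hairpin 1 arm was far more abundant. miR-106b-5p ranked 11th to 12th, miR-93-5p 13th to 14th and miR-25-3p 13th to 14th by reads among the 2366 miRNAs across the 4 libraries. The other arms ranked 81st to 88th (miR-106b-3p), 110th to 116th (miR-93-3p) and, for miR-25-5p, 167th and 164th after knockdown against 115th and 121st in controls. Mature lengths run from 21 to 23 bases and a read covers a whole miRNA, so these levels were not divided by length. The cluster took 4.16% and 4.18% of miRNA reads after knockdown, against 3.57% and 3.73% in controls. That share was higher in both knockdown libraries (4.17 ± 0.01% against 3.65 ± 0.12%, SD, n = 2 each; two-sided exact permutation p = 0.333, the smallest that 2 against 2 libraries allow). By library size, 69.2% of tested miRNAs also had both knockdown libraries above both controls. With TMM scaling the cluster's sum was instead lower after knockdown, at 35200 and 36499 CPM against 40449 and 44625 in controls. Per spike-in read its groups overlapped, with 1.57 and 2.09 reads after knockdown against 1.11 and 1.59 in controls.

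**Figure D1:**
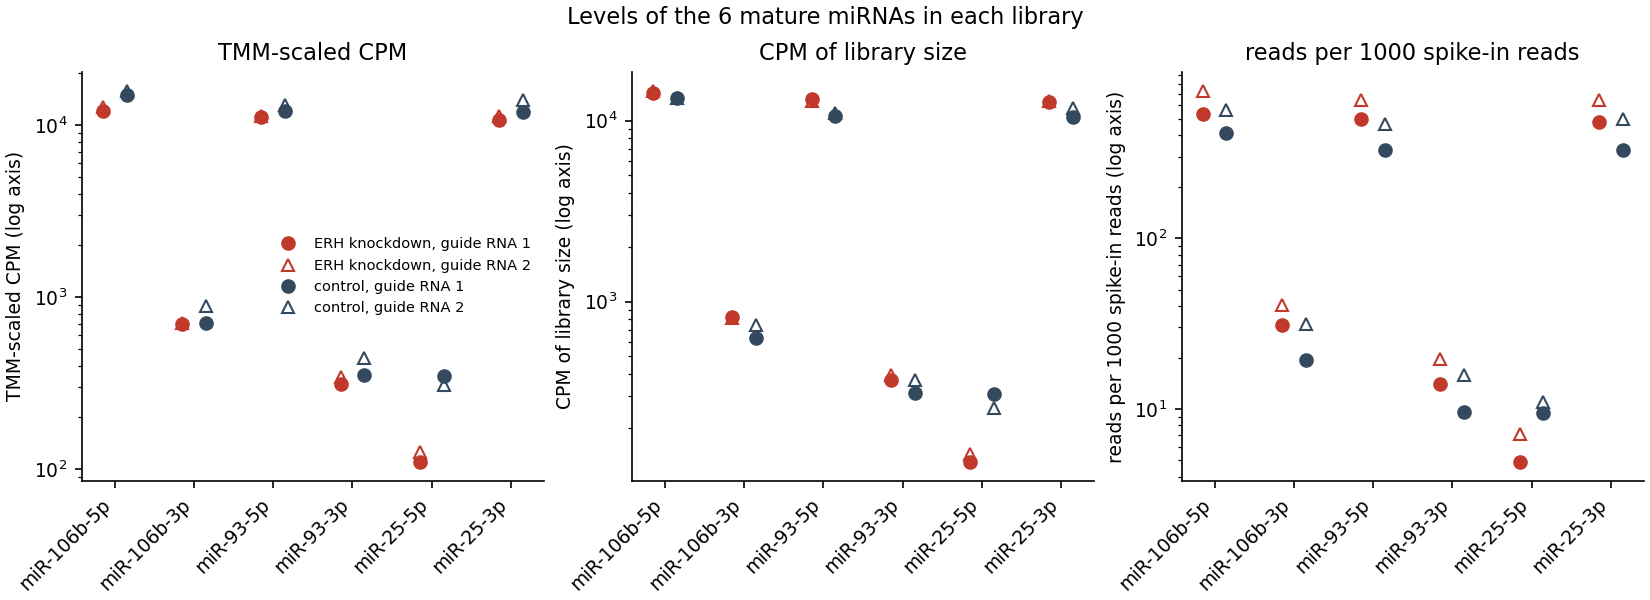
Level of each mature miRNA (x axis) in each library on 3 scales (y axes, log), with ERH knockdown in red left of control in dark blue, circles for guide RNA 1 and triangles for guide RNA 2. On each scale miR-25-5p is lower in both knockdown libraries. The other 5 miRNAs have a lower mean after knockdown with TMM and a higher mean on the other scales. Their groups overlap for miR-106b-3p with TMM and for all but miR-93-5p with spike-ins.

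After ERH knockdown, miR-25-5p was lower with both guide RNAs and on every scale tried, while none of the other 5 members had a sign that held on all 3 scales. miR-25-5p is the rarer arm of the last hairpin of the cluster. It had 289 and 343 reads after knockdown, against 439 and 637 in controls. Scaled with TMM, which sets the bulk of miRNAs equal between libraries, that is 110 and 125 CPM after knockdown against 348 and 307 CPM in controls. The groups did not overlap. The fitted log2 fold change of knockdown over control was -1.47 ± 0.10 (SE, 2 libraries per group; edgeR quasi-likelihood test, Benjamini-Hochberg adjusted p = 1.67e-08 over 464 miRNAs). It was the 9th largest fall of the 464. With library size alone the value was -1.03 ± 0.12 (adjusted p = 5.93e-10, edgeR), and with spike-in scaling it was -0.77 ± 0.36 (adjusted p = 0.078, edgeR, not called). Per 1000 spike-in reads there were 4.88 and 7.16 reads of miR-25-5p after knockdown against 9.51 and 10.96 in controls, and again the groups did not overlap. On that scale 3.88% of tested miRNAs had both knockdown libraries below both controls and 68.8% had them above.

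For the other 5 members the sign of the change depends on how libraries are scaled. miR-106b-5p, the most abundant member, had 12092 and 12769 TMM-scaled CPM after knockdown against 15040 and 15848 in controls. Scaled by library size alone it had 14289 and 14612 after knockdown against 13257 and 13262 in controls. Each of these scales separates the groups, in opposite directions. Of all tested miRNAs, 34.9% were likewise separated and lower with TMM, and 69.2% separated and higher with library size alone. Per 1000 spike-in reads, miR-106b-5p had 538 and 730 reads after knockdown against 411 and 565 in controls, so its groups overlapped. Its log2 fold change was -0.31 ± 0.05 with TMM (adjusted p = 1.62e-04), 0.12 ± 0.05 with library size alone (adjusted p = 0.038) and 0.38 ± 0.39 with spike-ins (adjusted p = 0.44), all from edgeR. Without the knockdown library of guide RNA 1 the TMM value was -0.29 and was not called.

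miR-93-5p, which shares its seed with miR-106b-5p, had 11210 and 11264 TMM-scaled CPM after knockdown against 12043 and 13169 in controls. Its log2 fold change was -0.17 ± 0.05 (edgeR, adjusted p = 0.018), and it turned to 0.27, a call, with library size alone and to 0.52, no call, with spike-ins. miR-25-3p, the abundant arm of its hairpin, had 10777 and 11285 TMM-scaled CPM after knockdown against 11954 and 13971 in controls. Its log2 fold change was -0.23 ± 0.06 (edgeR, adjusted p = 0.0076), turning to 0.21 with library size alone, where it was called, and to 0.45 with spike-ins, where it was not. Both values are small beside the shifts that scaling brings. Both lost their call without either knockdown library or without the control library of guide RNA 2, when miR-93-5p stood at -0.17, -0.17 and -0.12 and miR-25-3p at -0.21, -0.27 and -0.14.

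Of the rarer arms of the first 2 hairpins, miR-93-3p was called lower with TMM and miR-106b-3p was not. miR-93-3p had 314 and 344 TMM-scaled CPM after knockdown against 353 and 443 in controls (log2 fold change -0.29 ± 0.10, edgeR adjusted p = 0.025; 0.16 with library size alone and 0.40 with spike-ins, neither called). It lost its call without either knockdown library (-0.23 and -0.36) or without the control library of guide RNA 2 (-0.12). miR-106b-3p had 698 and 711 TMM-scaled CPM after knockdown against 711 and 887 in controls, so its groups overlapped. Its log2 fold change was -0.19 ± 0.09 (edgeR, adjusted p = 0.076), not called, and it was called at 0.25 with library size alone and at -0.34 without the control library of guide RNA 1. Its value without the control library of guide RNA 2 was -0.036.

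With TMM, 5 of the 6 members were called lower and 0 higher, where 25.2% of all tested miRNAs were called lower and 25.6% higher. The 5 became 1 without the knockdown library of guide RNA 1, 2 without that of guide RNA 2, and 2 without the control library of guide RNA 2. In either direction 50.9% were called with TMM, 67.7% with library size alone and 41.8% with spike-ins. Members had a median log2 fold change of -0.26 and all tested miRNAs one of 0.06. With library size alone, 4 members were called higher and 1, miR-25-5p, lower, where 58.8% of all tested miRNAs were called higher and 8.84% lower. The members' median was then 0.18 and that of all tested miRNAs 0.50. With spike-ins the medians were 0.42 and 0.75, and 0 members were called, where 40.1% of all tested miRNAs were called higher and 1.72% lower. Under all 3 scalings the members' median lay below that of all tested miRNAs. A change of scaling shifts all miRNAs nearly alike, so this is 1 result and not 3. The TMM groups did not overlap for 5 members, all lower after knockdown, as for 34.9% of tested miRNAs in that direction and 41.4% in the other. With library size alone all members but miR-25-5p had both knockdown libraries above both controls, miR-93-3p by a margin of under 1 CPM, as had 69.2% of tested miRNAs, while 14.2% had them below.

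**Figure D2:**
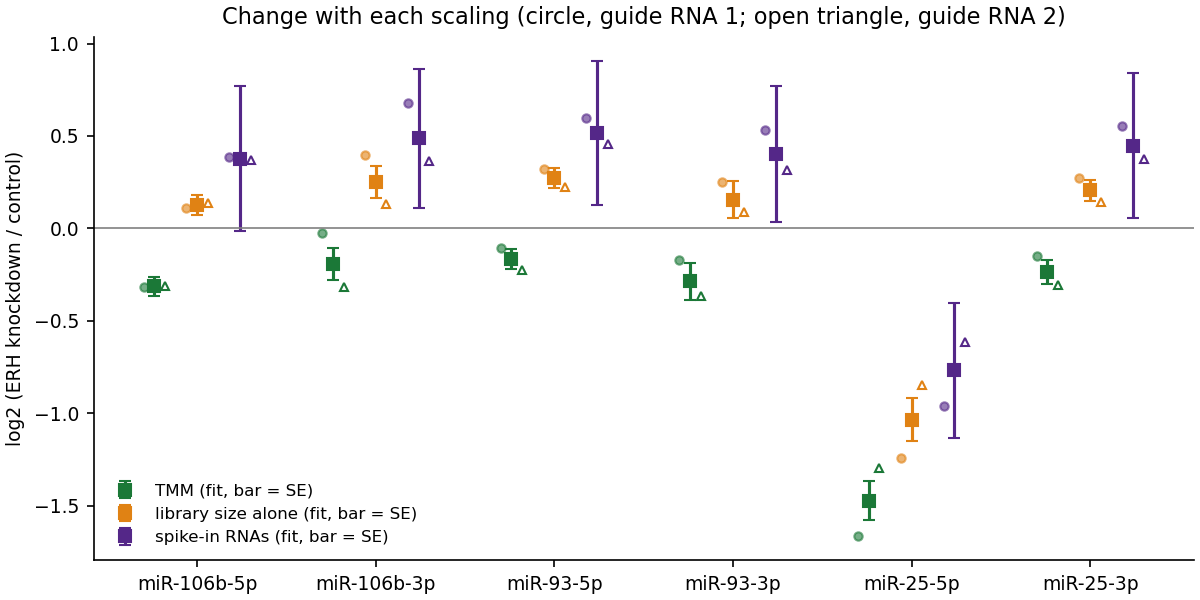
Log2 ratio of ERH knockdown to control (y axis) of the 6 members (x axis) with 3 scalings. Squares with bars are fitted values ± SE, circles the ratio within guide RNA 1 and open triangles that within guide RNA 2; miR-25-5p lies below 0 throughout and the other 5 members are below 0 with TMM and above 0 with library size or spike-ins.

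With TMM the guide RNAs differed less for the abundant arms than for the rarer arms, and gave near-equal values for miR-106b-5p alone. With TMM the log2 ratio of knockdown to control of miR-106b-5p was -0.31 with guide RNA 1 and -0.31 with guide RNA 2. It was -0.10 and -0.23 for miR-93-5p and -0.15 and -0.31 for miR-25-3p. For miR-25-5p it was -1.67 with guide RNA 1 and -1.30 with guide RNA 2, for miR-106b-3p -0.03 and -0.32, and for miR-93-3p -0.17 and -0.36. On the TMM scale all 6 members had negative values with both guide RNAs, the smallest in size being -0.03 for miR-106b-3p with guide RNA 1. With library size alone and with spike-ins, only miR-25-5p had negative values with both. The share of all tested miRNAs negative with both guide RNAs was not computed.

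The ratio of the 2 arms of a hairpin needs no scaling between libraries, and it changed most for miR-25. miR-25-5p made up 1.01% of miR-25 hairpin reads with guide RNA 1 (95% Wilson interval 0.90% to 1.13%) and 1.10% with guide RNA 2 (0.99% to 1.22%) after knockdown. In controls it made up 2.83% (2.58% to 3.10%) and 2.15% (1.99% to 2.32%). Each knockdown interval lay below each control interval, and the difference was larger than the spread between libraries of a group (1.05 ± 0.06% against 2.49 ± 0.48%, SD, n = 2 each). These intervals cover counting error only. The exact permutation test gave a two-sided p = 0.333, its smallest possible value, and 51.3% of the 119 arm pairs measured had groups that did not overlap. In other terms there were 98.1 and 90.1 reads of miR-25-3p per read of miR-25-5p after knockdown, against 34.3 and 45.5 in controls.

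The log2 ratio of miR-25-5p to miR-25-3p changed by -1.25 ± 0.19 (SE; 95% interval -1.76 to -0.74). Fitted over 119 arm pairs with limma and 1 prior variance for all, it ranked 3rd by p (unadjusted p = 0.0018) and 5th by size, and its adjusted p was 0.070, not called. That fit called 0% of pairs, while 25 of the 119 had an unadjusted p under 0.05. The adjusted p was 0.0012 with guide RNA as a block, 0.0017 when only miRNAs with a mean of at least 10 CPM were paired, 0.038 with a pseudocount of 2, and 1.66e-10 when the prior variance followed read depth, a fit that called 17.6% of all pairs. In each of these 4 fits the change was called, with the value again at -1.25. The block fit gave it a larger SE, 0.30, equal to that of the miR-106b and miR-93 pairs. Its smaller adjusted p thus rests on a variance shared by the pairs, not on closer agreement within guide RNAs. Leaving out 1 library at a time gave values from -1.45 to -1.05, with adjusted p from 0.084 to 0.40 (limma), none called. Over all 119 pairs the median change was -0.04 and the median size of a change 0.24.

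**Figure D3:**
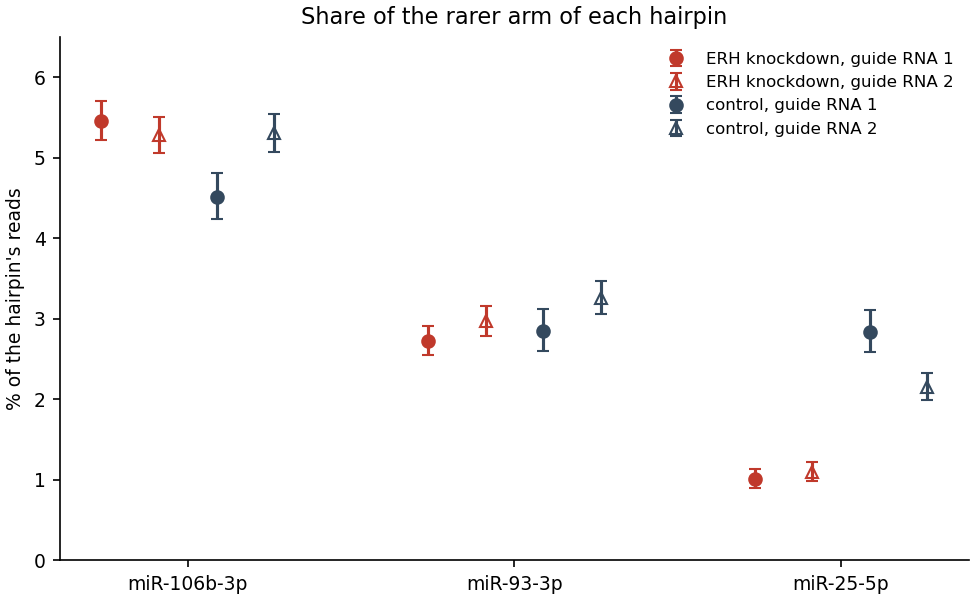
Share of each hairpin's reads (y axis, %) that came from its rarer arm (x axis), per library with 95% Wilson intervals, ERH knockdown in red left of control in dark blue. The miR-25-5p share is 1.01% and 1.10% after knockdown against 2.83% and 2.15% in controls, while the shares of miR-106b-3p and miR-93-3p overlap between the groups.

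The arms of the first 2 hairpins kept ratios that overlapped between the groups. miR-106b-3p made up 5.45% and 5.28% of its hairpin's reads after knockdown against 4.51% and 5.30% in controls. The change in the log2 ratio of miR-106b-5p to miR-106b-3p was -0.14 ± 0.16 (SE; 95% interval -0.55 to 0.27; limma, adjusted p = 0.69). miR-93-3p made up 2.72% and 2.97% of its hairpin's reads after knockdown against 2.85% and 3.25% in controls. The change in the log2 ratio of miR-93-5p to miR-93-3p was 0.10 ± 0.15 (SE; 95% interval -0.31 to 0.51; limma, adjusted p = 0.75). Both intervals leave out a change as large as that of miR-25, but they allow smaller ones in either direction. Between these 2 rarer arms the ratio moved little, with 2.22 and 2.07 reads of miR-106b-3p per read of miR-93-3p after knockdown against 2.01 and 2.003 in controls, both knockdown libraries being higher. miR-25-5p changed more against them. There were 0.350 and 0.364 reads of it per read of miR-93-3p after knockdown, against 0.987 and 0.694 in controls.

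**Figure D4:**
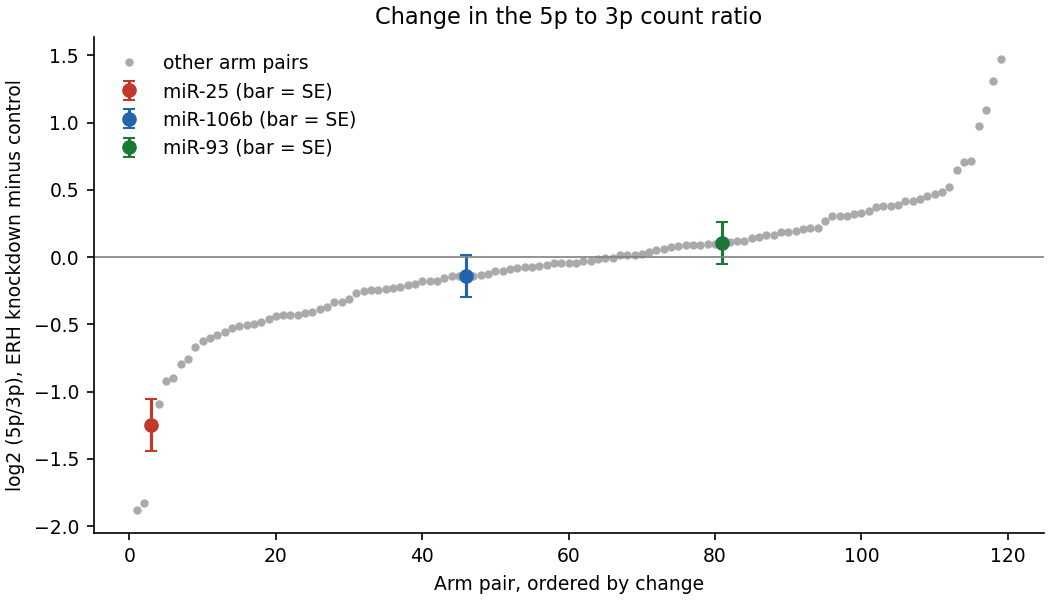
Change in the log2 5p to 3p count ratio, ERH knockdown minus control (y axis), for 119 arm pairs ordered by that change (x axis). miR-25 lies near the lower end at -1.25, while miR-106b (-0.14) and miR-93 (0.10) lie in the middle of the range.

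The proportions of the 3 hairpins moved by less than 3 points of the cluster's reads in each line. The miR-106b hairpin gave 36.3% and 36.9% of the cluster's reads after knockdown against 38.9% and 37.5% in controls, and the miR-93 hairpin 32.7% and 31.8% after knockdown against 30.6% and 30.5% in controls. Neither hairpin's groups overlapped, with a two-sided exact permutation p of 0.333 for each, its smallest possible value. Of the 119 arm pairs, 51.3% also had groups that did not overlap, and no such share was computed for hairpins. The miR-25 hairpin gave 30.9% and 31.3% after knockdown against 30.4% and 32.0% in controls, so its groups overlapped. By their abundant arms, there were 1.08 and 1.13 reads of miR-106b-5p per read of miR-93-5p after knockdown against 1.25 and 1.20 in controls. That ratio was lower in both knockdown libraries, by a log2 change of -0.15 ± 0.16 (SE; 95% interval -0.59 to 0.29; limma over 336 pairs of hairpins in 1 cluster, adjusted p = 0.69). The ratio of miR-106b-5p to miR-25-3p was 1.122 and 1.131 after knockdown against 1.258 and 1.134 in controls (log2 change -0.08 ± 0.16, 95% interval -0.54 to 0.37, limma adjusted p = 0.83). That of miR-93-5p to miR-25-3p was 1.04 and 0.998 after knockdown against 1.01 and 0.943 in controls (log2 change 0.06 ± 0.16, 95% interval -0.38 to 0.51, limma adjusted p = 0.89). The median size of a change over the 336 pairs was 0.31. None of the 3 ratios was called in any fit tried, and with 1 prior variance 0% of pairs were called, with 69 pairs at an unadjusted p under 0.05. When the prior variance followed read depth, 11.9% of pairs were called and the smallest of the 3 adjusted p was 0.13 (limma).

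Members were next set against counted miRNAs with the same seed, which can repress the same targets. The seed AAAGUGC was held by 8 counted miRNAs, of which 6 were tested. Among the 4 tested outside the cluster, miR-17-5p and miR-20a-5p of the miR-17~92a-1 cluster were called lower with TMM, at -0.45 ± 0.05 and -0.53 ± 0.05 (SE, edgeR; adjusted p = 1.49e-06 and 4.40e-07), and neither was called with library size alone (-0.02 and -0.09) or with spike-ins (0.24 and 0.16). miR-106a-5p, with 12 to 23 reads, was not called (-0.42 ± 0.32). miR-519d-3p was called higher at 1.07 ± 0.25 from 82 and 64 reads after knockdown against 17 and 26 in controls, and under all 3 scalings. Of the family's reads, miR-106b-5p and miR-93-5p gave 10.4% and 10.2% after knockdown against 8.55% and 9.01% in controls, so both knockdown libraries were higher. How often such family shares separate the groups was not computed.

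Single ratios, which need no scaling, went the same way. There were 0.142 and 0.143 reads of miR-106b-5p per read of miR-17-5p after knockdown against 0.127 and 0.132 in controls. For miR-93-5p per read of miR-20a-5p the values were 0.0972 and 0.0918 after knockdown against 0.0705 and 0.0761 in controls. Neither pair of groups overlapped. The share of like miRNA pairs without overlap was not computed. With library size alone, 69.2% of tested miRNAs had both knockdown libraries above both controls, and 14.2% had them below. The mature sequence of miR-93-5p is 3 single-base edits from that of miR-17-5p, and that of miR-106b-5p is 5 edits from it, and how reads that match several such miRNAs were assigned is not given in the sources used here.

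The seed AUUGCAC of miR-25-3p was held by 6 counted miRNAs, of which 4 were tested. Outside the cluster, miR-92a-3p was called lower at -0.72 ± 0.06 (SE, edgeR, adjusted p = 2.20e-07; called at -0.28 with library size alone, -0.04 and not called with spike-ins). miR-92b-3p was called lower at -0.31 ± 0.06 (adjusted p = 4.04e-04; 0.13 and 0.38, not called, with the other scalings), and miR-32-5p stood at -0.00 ± 0.05 (edgeR, adjusted p = 0.97), with 0.43 and a call with library size alone. miR-25-3p gave 12.8% and 12.5% of the family's reads after knockdown against 9.55% and 9.80% in controls. Against miR-92a-3p, 4 edits away in sequence, there were 0.165 and 0.159 reads of miR-25-3p per read after knockdown and 0.114 and 0.116 in controls. This was a 1.41-fold higher ratio, and the groups did not overlap. Of the 119 arm pairs, 51.3% also had groups that did not overlap. No such share was computed for seed-family shares or for pairs within a seed family. Against miR-32-5p the ratio went the other way, with 1.67 and 1.73 after knockdown and 1.82 and 2.18 in controls. Against miR-92b-3p the groups overlapped, with 7.16 and 7.26 after knockdown and 6.44 and 7.20 in controls. Each of these shares and ratios has an exact permutation p of 0.333 at the least, so they are given as measurements of 4 libraries.

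**Figure D5:**
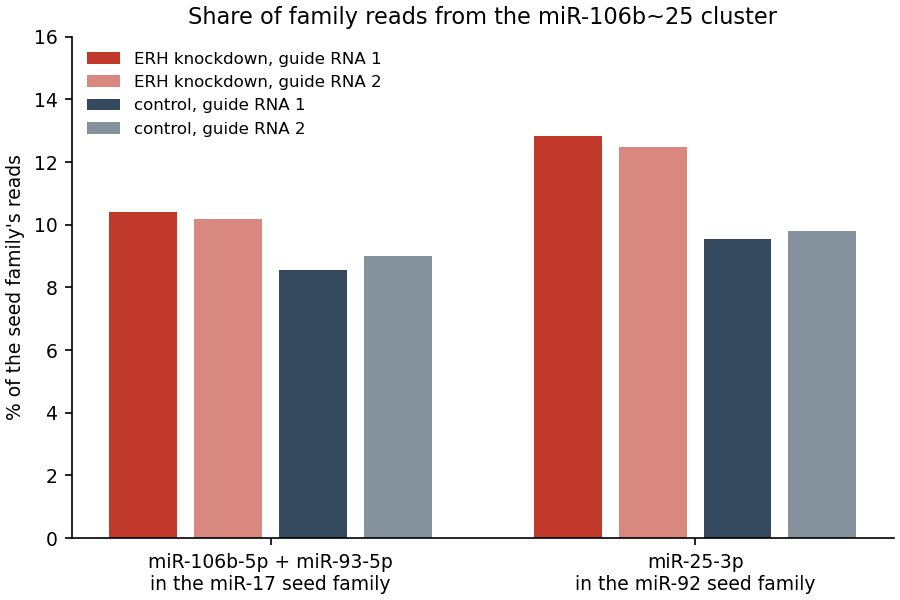
Share of the reads of a seed family (y axis, %) that came from the miR-106b~25 cluster, one bar per library, ERH knockdown in red left of control in dark blue. In both families the 2 knockdown libraries (10.4% and 10.2%, 12.8% and 12.5%) stand above the 2 controls (8.55% and 9.01%, 9.55% and 9.80%).

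Profiles over the 4 libraries were compared by the Euclidean distance between log2 TMM-scaled CPM values, each centred on its own mean. This is a description of values that share the same libraries and depths. Among the members other than miR-25-5p, distances ran from 0.09 to 0.23. miR-25-5p lay 1.18 to 1.35 from each of them. Of the 463 other tested miRNAs, those most like miR-25-5p were miR-223-5p (distance 0.21, log2 fold change -1.64) and miR-21-3p (0.23, -1.64), against a median distance of 1.57. Those most like miR-106b-5p were miR-92b-3p and miR-222-3p (0.02 each), and those most like miR-93-5p were miR-454-3p (0.03) and miR-130b-3p (0.04). miR-25-3p lay closest to miR-1307-3p (0.04) and miR-9-5p (0.05). miR-106b-3p lay closest to miR-339-3p (0.06) and miR-9-5p (0.06), and miR-93-3p to miR-221-5p (0.05) and miR-5581-3p (0.09).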

How the data were processed

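The authors deposited raw read counts per mature miRNA, 1 table of 2368 rows per library without a header, 2 of them spike-in RNAs and the others human miRNAs. Per the labels, total RNA came from TRIzol extraction and its small RNA was cut from a gel before sequencing. For trimming, aligner, annotation and build, nothing is given in the sources used here. The members and lists were chosen with earlier results of these data known.

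The human counts were filtered with filterByExpr (minimum count 10, minimum total 15). This left 464 miRNAs holding 99.9% of counts. edgeR 4.0.16 in R 4.3.3 gave TMM factors and quasi-likelihood tests, with no block. A call needs a Benjamini-Hochberg adjusted p below 0.05. The biological coefficient of variation was 5.08%. Spike-in scaling used the sum of both spike-ins as library size; there were 7.78 and 9.82 reads of frog miR-427 per read of fly miR-14 in knockdown libraries and 7.14 and 7.18 in controls. Count ratios used a pseudocount of 0.5 and limma 3.58.1, over 119 pairs of tested 5p and 3p arms and over 336 pairs of hairpins in 38 clusters (neighbours within 10 kb on 1 strand, GENCODE 29; 2363 names matched), each hairpin by its most abundant arm. In the depth-dependent version the prior variance followed the count of the rarer miRNA of a pair. Other tools were DESeq2 1.42.0, RNAfold 2.7.2, scipy 1.17.1 and matplotlib 3.10.9.

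Libraries with the same number share a guide RNA and so a polyclonal line, which pairs them by design. Deviations of same-numbered libraries correlated at -0.11 across miRNAs. With 1 culture for each guide RNA and condition, the p-values reflect the spread of these libraries alone. Within a group, libraries differed beyond sampling noise, with a chi-square of 3.93 (knockdown) and 10.1 (control) for each degree of freedom. The limit set by 0 reads is 3 reads, which is 1.21 to 2.10 CPM. Named miRNAs are the 6 members, the 3 most abundant other tested miRNAs of each shared seed, and the 2 with the nearest profile to each member. miR-106a-5p was added to complete its list. A mature sequence was matched for 2090 names, with sequences on chromosome 8 left out.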

Additional observations from a re-analysis of the deposited data

Results flagged for a closer look

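No group was large enough for a test of single outlying libraries. In 3 ratios or shares of hairpins and seed families the lines with the 2 guide RNAs moved in opposite directions. Each direction rests on 1 pair of libraries, so the difference was not tested. The count of miR-106b-5p per miR-106b-3p changed by -0.29 on the log2 scale with guide RNA 1 and by 0.0075 with guide RNA 2. The miR-25 hairpin's share of cluster reads changed by 0.02 with guide RNA 1 and by -0.033 with guide RNA 2 (log2). The share of all miRNA reads held by miRNAs with the seed AAAGUGC, 26.5% and 27.0% after knockdown against 27.9% and 27.0% in controls, changed by -0.08 with guide RNA 1 and by 0.0022 with guide RNA 2 (log2). Shares of single arms in the cluster's reads also had opposite signs, with 0.17 for guide RNA 1 and -0.029 for guide RNA 2 for miR-106b-3p, 0.031 and -0.073 for miR-93-3p, and 0.051 and -0.018 for miR-25-3p (log2).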

How the results depend on the processing

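The count of members called lower, 5, was 1 with library size alone and 0 with spike-in scaling, and 1 to 6 when 1 library was left out. All tested miRNAs called, 236, were 146 with DESeq2 and 117 to 195 with 1 library left out (117 without the knockdown library of guide RNA 1, 140 without the control library of guide RNA 2); the split of higher to lower calls, 119 to 117, was 273 to 41 with library size alone, 186 to 8 with spike-ins and 47 to 99 with DESeq2. Against TMM, the median over all tested miRNAs shifted by 0.44 when only library size was used and by 0.68 with spike-ins. Signs turned positive with library size alone and with spike-ins for miR-106b-5p (0.12 and 0.38), miR-106b-3p (0.25 and 0.49), miR-93-5p (0.27 and 0.52), miR-93-3p (0.16 and 0.40) and miR-25-3p (0.21 and 0.45); the cause was not tested. miR-25-5p was not called with spike-ins (-0.77). With 1 library left out, values ran from -0.36 to -0.29 for miR-106b-5p, -0.34 to -0.036 for miR-106b-3p, -0.24 to -0.12 for miR-93-5p, -0.44 to -0.12 for miR-93-3p, -0.35 to -0.14 for miR-25-3p and -1.59 to -1.39 for miR-25-5p, which was called each time. miR-93-5p was not called without a filter (-0.15) nor miR-93-3p with a mean of at least 10 CPM (-0.24), and miR-106b-3p was called with RLE factors (-0.24). Of the 3 arm ratios 0 were called, against 1, that of miR-25, with guide RNA as a replicate block (-1.25), a depth-dependent prior variance (-1.25), a pseudocount of 2 (-1.25) and a mean of at least 10 CPM (-1.25). Of hairpin ratios over all clusters 0 were called, against 40 with the depth-dependent prior, 42 and 63 without either control library, and 34 of 88 when clusters were drawn within 3 kb, none of them a member's. The block changed no other call on members. Crossed pairing, added after seeing the data, called 5 members lower and 0 arm ratios. In all, 151 of 192 alternative values kept their direction and side of the threshold, or lay near the value reported. Depth limits the rarer arms most, above all miR-25-5p with 289 to 637 reads.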
